A study of Mus musculus with 6 samples.

Results

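The genes described here encode heat shock proteins and chaperones. They are the 81 rows, of 48709 in the count table, whose Ensembl identifier belongs in GENCODE M21 to a protein-coding gene with a symbol that starts with Hsp90, or with Hspa, Hspb, Hspd, Hspe, Hsph, Dnaja, Dnajb or Dnajc and a digit, or that is Tcp1 or runs from Cct2 to Cct8. The rule uses symbols and gene types and no measured value. Of these genes, 11 are known mainly from testis germ cells and are described apart from their families. The other 70 comprise 3 HSP90 genes, 9 HSP70 genes, 2 HSP110 genes, 2 genes for the mitochondrial pair HSP60 and HSP10, 8 genes of the CCT chaperonin, 7 small heat shock protein genes, and J-domain genes of the classes DNAJA (4), DNAJB (9) and DNAJC (26).

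Chaperones bind unfolded or partly folded proteins and help them reach or keep their shape. HSP70 proteins bind short hydrophobic stretches in a cycle driven by ATP, which J-domain proteins start and HSP110 proteins reset by exchanging the nucleotide. HSP90 proteins finish the folding of kinases and steroid receptors, the CCT ring folds actin and tubulin, and small heat shock proteins hold damaged proteins until they can be refolded. Heat shock factors switch on the stress-inducible genes of these families when unfolded proteins accumulate in the cytosol, and a separate response serves the endoplasmic reticulum (ER). In the testis, several families have members that are made during the meiotic and later stages of sperm formation.

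RNA was sequenced from ovaries of CD1 mouse fetuses at 13.5 days post coitum (dpc), when female germ cells enter meiosis. The dams had been given acetaminophen (APAP) at 30 mg/kg/day together with ibuprofen (IBU) at 15 mg/kg/day by gavage, or the vehicle, from 10.5 to 13.5 dpc. Each group had 3 libraries, and each library was 1 pool of gonads taken from a pair of pregnant females according to the methods, so the p-values measure the spread between pools. The titles of the exposed samples name ibuprofen alone, but both drugs are named in the exposure label and in the methods.

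The libraries held 37811968 to 48954631 counts. Levels are given as depth-scaled counts (CPM) after TMM normalisation, and genes are compared with each other only as CPM per kilobase of exon (RPKM). Fetal germ cell markers (6 genes) summed to 1101 to 1476 CPM and ovarian supporting cell markers (6 genes) to 339 to 602 CPM in the 6 libraries, whereas Sertoli and Leydig cell markers (6 genes) summed to 11.54 to 24.0 CPM in controls and 10.1 to 12.0 CPM in exposed ovaries. Hepatocyte markers (10 genes) summed to 1912 CPM in control 3 and 3081 CPM in exposed 3, against 191 to 547 CPM in the other 4 libraries. Red blood cell markers (8 genes) summed to 5885 to 13770 CPM in controls and 2500 to 8667 CPM in exposed libraries. Replicate 3 of each group therefore stands apart in hepatocyte markers, and results are given with all 6 libraries and with replicates 1 and 2 alone. That smaller set was chosen with earlier results of these data known. Its calls rest on 4 libraries and describe them, and are not an independent test. In whole ovaries, fewer cells of a type and less RNA per cell cannot be told apart.

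Chaperone transcripts made up a slightly smaller part of the exposed libraries. All 81 genes together took 1.89%, 1.82% and 1.76% of the counts in control 1 to 3, and 1.53%, 1.58% and 1.66% in exposed 1 to 3, without overlap between the groups. Per gene, the differences were small outside the testis genes. The median log2 fold change (exposed over control) was -0.20 over the 78 genes with enough counts to test and -0.17 over the 68 of them outside the testis list, beside -0.0047 over all 20167 genes tested. The log2 fold change was negative for 55 of the 78 (70.5%) and for 46 of the 68 (67.6%), beside 50.6% of all genes. Cct8l1, Hspb3 and the testis gene Dnajb7 had too few counts to be tested.

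With all 6 libraries, the quasi-likelihood test of edgeR, adjusted over all genes by the Benjamini-Hochberg method, called none of the 78 genes and none of all genes tested (0%) at an adjusted p under 0.05. DESeq2 called 3 of the 78, all of them testis genes and lower, beside 192 of all 20167 genes, of which 173 were lower. At an unadjusted p under 0.05, 8 of the 78 genes (10.3%) were lower in exposed ovaries, beside 3.21% of all genes, and 0 were higher, beside 3% of all genes. These 8 genes were 4 testis genes (Dnajc5b, Hspa1l, Hspb9 and Dnajb8) and 4 others (Hsph1, Dnajc9, Hspa9 and Hspa8), the latter being 5.88% of the 68. The 4 testis genes passed the expression filter only through the controls. Every exposed library lay below every control library for 18 genes (23.1%; 13 of the 68, 19.1%), beside 5.92% of all genes. Every exposed library lay above every control library for 3 genes (3.85%: Dnajc16, Dnajc28 and Hspb11), beside 4.78% of all genes.

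With replicates 1 and 2 alone, 25 of the 78 genes passed the adjusted threshold. Of these, 20 fell (25.6%; 17 of the 68, 25%), beside 12.9% of all genes, and 5 rose (6.41%), beside 14.2% of all genes. The genes that rose were Dnajb14, Dnajc13, Dnajc16, Hspa13 and the testis gene Hspa4l. After a correction for transcript length and GC content 23 genes fell, beside 8.23% of all genes, and 0 rose, beside 5.68% of all genes, in these 4 libraries, so the 5 higher calls depended on that choice. The lower calls changed too: Dnajb1, Dnajb2, Dnajc30, Hsp90ab1 and Hspd1 were lost. Cct8, Dnaja1, Dnajc2, Dnajc11, Dnajc19, Hsp90b1, Hspa5 and Hspa9 were called lower only with the correction.

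**Figure D1:**
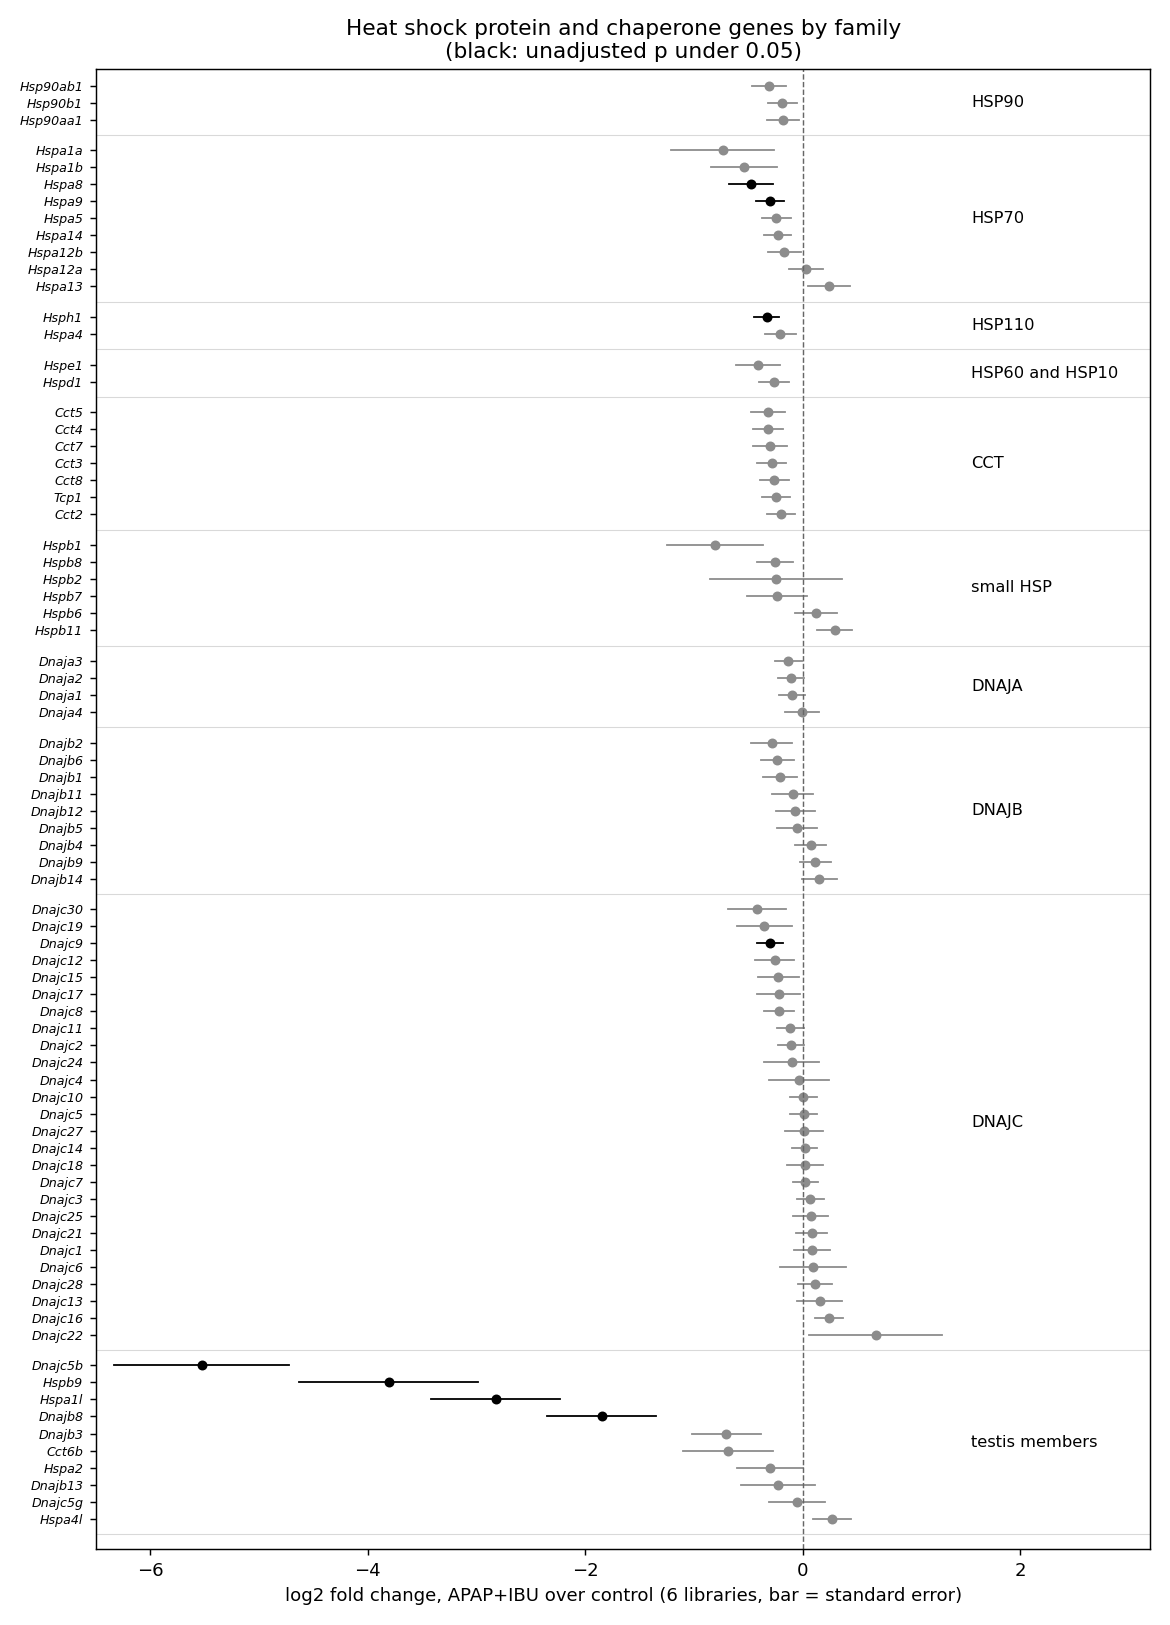
Log2 fold change of each tested gene in exposed over control ovaries with all 6 libraries (point) and its standard error (bar), grouped by family with the testis genes last; black marks an unadjusted p under 0.05. The CCT, HSP90, HSP110, HSP60 and HSP10 points all lie below 0, the 26 DNAJC points spread to both sides, and the 4 lowest points are testis genes.

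The cytosolic HSP90 gene Hsp90ab1, which encodes the constitutive form, had the highest level of all 81 genes at a mean of 1150 RPKM. It was at 4304, 3772 and 3381 CPM in control 1 to 3 and at 2806, 3128 and 3299 CPM in exposed 1 to 3, so the groups did not overlap, although control 3 and exposed 3 lay close together. The log2 fold change was -0.31 (SE 0.16, adjusted p = 0.692), and with replicates 1 and 2 it fell by 0.42 on the log2 scale (adjusted p = 0.0327), a call that was lost after the correction for length and GC content (adjusted p = 0.147). Hsp90aa1, the stress-inducible cytosolic form, was at 1299, 1114 and 1265 CPM in controls and 957, 1095 and 1195 CPM in exposed ovaries. Here the groups overlapped, with a log2 fold change of -0.18 (adjusted p = 0.714). Over its length, 58.5% of the 50-base stretches of Hsp90aa1 also occur in other transcripts, mainly the pseudogene Gm12346, so its counts are less certain than those of Hsp90ab1 (4.49%). The 3 HSP90 genes were each lower in exposed ovaries under all 5 scalings tried, and their summed level was 6831, 6301 and 5918 CPM in controls and 4937, 5404 and 5579 CPM in exposed ovaries.

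Hspa8, the constitutive cytosolic HSP70, was at 1132, 1150 and 779.8 CPM in controls and at 626, 707 and 876 CPM in exposed ovaries. Controls 1 and 2 were above every exposed library, whereas control 3 lay below exposed 3. The log2 fold change was -0.47 (SE 0.20, adjusted p = 0.692) with 6 libraries. With replicates 1 and 2 Hspa8 fell by 0.76 on the log2 scale (adjusted p = 0.00632), which was also called after the correction for length and GC content (adjusted p = 0.0097). Of its 50-base stretches, 52.7% occur in other transcripts, mainly the pseudogene Gm15459. Hspa14, a ribosome-associated HSP70, was lower in each exposed library, with a log2 fold change of -0.23. The endothelial gene Hspa12b and its relative Hspa12a had log2 fold changes of -0.17 and 0.03.

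The strongly heat-inducible HSP70 genes Hspa1a and Hspa1b were barely expressed. Hspa1a was at 1.71, 2.22 and 0.622 CPM in controls and at 1.03, 0.655 and 1.04 CPM in exposed ovaries. Hspa1b was at 3.04, 2.84 and 1.61 CPM in controls and at 1.77, 1.57 and 1.80 CPM in exposed ovaries. In both genes control 1 and 2 were the 2 highest libraries and control 3 was within or below the exposed range. Their log2 fold changes were -0.74 (SE 0.48) and -0.54 (SE 0.30), with adjusted p-values of 0.698 and 0.692. The copies share 58.8% of the 50-base stretches of Hspa1a and 62.3% of those of Hspa1b, so their reads cannot be split with certainty. No exposed library was above control 1 or control 2 in either gene.

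The HSP110 gene Hsph1, an exchange factor that is itself stress-inducible, was at 203, 199.9 and 194 CPM in controls and at 147, 156 and 172 CPM in exposed ovaries. The controls lay close together and above every exposed library. It had the smallest unadjusted p outside the testis list, with a log2 fold change of -0.33 (SE 0.12, adjusted p = 0.692), and with replicates 1 and 2 it fell by 0.39 on the log2 scale (adjusted p = 0.0174). Its constitutive relative Hspa4 was at 532, 447 and 586 CPM in controls and at 429, 452 and 476 CPM in exposed ovaries, with overlap and a log2 fold change of -0.21 (adjusted p = 0.699).

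The J-domain partners of cytosolic HSP70 overlapped between the groups. Dnaja1 was at 274, 248 and 229 CPM in controls and 232, 227 and 243 CPM in exposed ovaries, and Dnaja2 at 287, 256 and 268 CPM against 244, 269 and 238 CPM. Their log2 fold changes were -0.10 and -0.11. With replicates 1 and 2 Dnaja1 was not called (adjusted p = 0.226), but after the correction for length and GC content it fell by 0.69 on the log2 scale (adjusted p = 0.0137). Dnajb1, the stress-inducible HSP40, was at 119, 119 and 92.0 CPM in controls and at 82.2, 93.8 and 109.8 CPM in exposed ovaries, again with controls 1 and 2 highest and control 3 among the exposed libraries. Its log2 fold change was -0.21 (adjusted p = 0.704), and with replicates 1 and 2 it fell by 0.42 on the log2 scale (adjusted p = 0.0193). The call for Dnajb1 was lost after the correction for length and GC content (adjusted p = 0.0994). Over the 4 DNAJA and 9 DNAJB genes, the median log2 fold changes were -0.10 and -0.07. No gene was without overlap between the groups, beside 5.92% of all genes lower and 4.78% higher without overlap.

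Among the small heat shock proteins, Hspb1, which encodes HSP25, showed the widest spread. It was at 24.5, 27.0 and 7.12 CPM in control 1 to 3 and at 8.97, 11.2 and 13.4 CPM in exposed 1 to 3. Controls 1 and 2 were far above the exposed libraries and control 3 was below all of them. The log2 fold change was -0.80 (SE 0.44, adjusted p = 0.692) with 6 libraries, -1.20 without control 3 (adjusted p = 0.0372), and -1.34 with replicates 1 and 2 (adjusted p = 0.00623). The correction for length and GC content reduced the last value to -0.66 (adjusted p = 0.049). Of the 50-base stretches of Hspb1, 51.6% are shared with the pseudogene Hsp25-ps1, whose log2 fold change was -0.94 (adjusted p = 0.692), so the source of these reads is uncertain. Hspb8 was at 22.0, 20.7 and 16.7 CPM in controls and 15.3, 18.2 and 16.3 CPM in exposed ovaries (log2 fold change -0.25, adjusted p = 0.699). Hspb11, a subunit of the ciliary transport complex rather than a classical chaperone, was at 13.4, 14.5 and 11.2 CPM in controls and 15.9, 16.4 and 15.8 CPM in exposed ovaries, without overlap (log2 fold change 0.30, adjusted p = 0.692). Hspb2, Hspb6 and Hspb7 were below 10 CPM in every library and overlapped. The median of the 6 tested genes was -0.24 and changed sign to 0.03 after the correction for length and GC content.

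**Figure D2:**
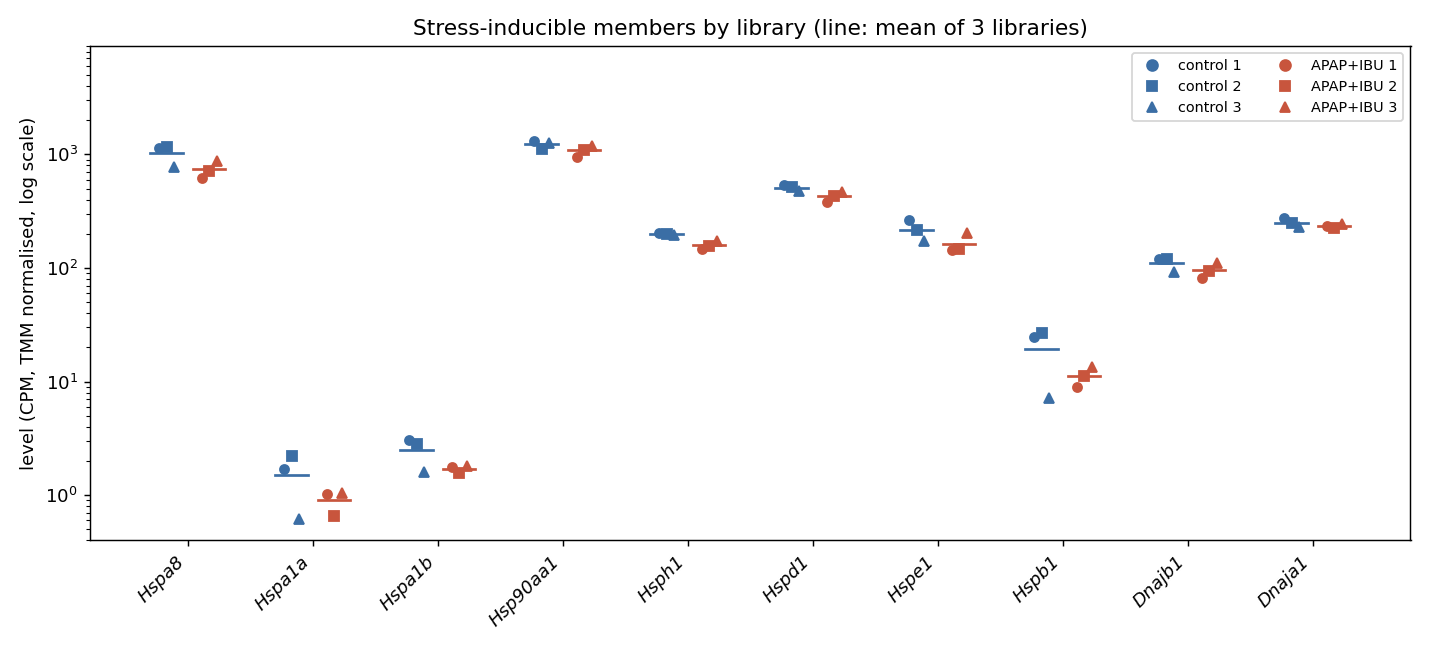
Level of 10 genes of the stress-inducible set, among them the constitutive Hspa8, in each library (CPM, log scale), with controls in blue and exposed ovaries in red; circles, squares and triangles are replicates 1, 2 and 3, and each line is the mean of 3 libraries. The control 3 triangle lies among or below the exposed points for Hspa8, Hspa1a, Hspb1 and Dnajb1, while the 3 controls of Hsph1 and Hspd1 lie above every exposed point.

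The stress-inducible set of 19 genes adds co-chaperones and ubiquitin genes, and also holds the constitutive Hspa8 and the testis gene Hspa4l. Of the 19, 16 had a negative log2 fold change (median -0.26), beside 50.6% of all genes. At an unadjusted p under 0.05, 2 were lower (Hsph1 and Hspa8), beside 3.21% of all genes. With replicates 1 and 2 alone 10 of the 19 fell and 1 rose, beside 12.9% and 14.2% of all genes, and after the correction for length and GC content 7 fell and 0 rose, beside 8.23% and 5.68%. Their summed level was 5206, 4780 and 4185 CPM in controls and 3457, 3907 and 4431 CPM in exposed ovaries. Hspa8 and Hsp90aa1 made up much of this sum, and Hspa1a and Hspa1b very little. The order of the libraries resembled that of 15 immediate early genes, which respond to tissue handling: these summed to 199.8, 142 and 81.4 CPM in controls and 90.0, 100.5 and 133 CPM in exposed ovaries. In both sums control 1 was highest, control 3 lowest of the controls and exposed 3 highest of the exposed libraries. This order was not particular to the stress-inducible set. It was also that of the summed HSP90 genes, CCT genes, HSP60 and HSP10 pair and co-chaperones outside the symbol rule. The sums of the HSP70, HSP110, small heat shock protein and J-domain genes had other orders. All 70 genes outside the testis list summed to 19430, 18360 and 17380 CPM in controls and 14670, 15650 and 16540 CPM in exposed ovaries. The part of tissue handling in the stress-inducible values was not tested. The heat shock factor genes Hsf1 and Hsf2 had log2 fold changes of 0.10 (adjusted p = 0.812) and -0.02 (adjusted p = 0.965). With replicates 1 and 2 and the correction for length and GC content Hsf2 fell by 0.68 on the log2 scale (adjusted p = 0.0237), whereas without the correction it was at 0.11 (adjusted p = 0.466). Hsf3 was below 0.5 CPM in each library (log2 fold change 1.23, adjusted p = 0.692), and the testis factor Hsf5 had a log2 fold change of -0.53 (adjusted p = 0.692).

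The mitochondrial pair Hspd1 and Hspe1 encodes the HSP60 barrel and its HSP10 lid, which fold imported proteins. The genes lie head to head and share 1 promoter. Hspd1 was at 542, 512 and 477 CPM in controls and at 378, 430 and 471 CPM in exposed ovaries, without overlap although control 3 and exposed 3 nearly met. Its log2 fold change was -0.26 (adjusted p = 0.692), and with replicates 1 and 2 it fell by 0.36 on the log2 scale (adjusted p = 0.0347; 0.0547 after the correction for length and GC content). Hspe1 was at 266, 214 and 174 CPM in controls and at 143, 146 and 204 CPM in exposed ovaries, with exposed 3 above control 3. Its log2 fold change was -0.41 (adjusted p = 0.692), and with replicates 1 and 2 it fell by 0.71 on the log2 scale (adjusted p = 0.00833). Hspa9, the mitochondrial HSP70 that pulls proteins through the inner membrane, was at 604, 551 and 611 CPM in controls and at 441, 485 and 508 CPM in exposed ovaries. These groups were well separated, and the log2 fold change of Hspa9 was -0.30 (SE 0.13, adjusted p = 0.692). Using replicates 1 and 2 it was not called (adjusted p = 0.0612), and after the correction for length and GC content it fell by 0.46 on the log2 scale (adjusted p = 0.0381). All 8 mitochondrial genes tested, which include the J-domain genes Dnaja3, Dnajc11, Dnajc15, Dnajc19 and Dnajc30, had a negative log2 fold change (median -0.28). In replicates 1 and 2 alone 4 of the 8 fell and 0 rose, beside 12.9% and 14.2% of all genes, and after the correction for length and GC content 5 fell and 0 rose, beside 8.23% and 5.68%.

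Promoters were searched for the heat shock element, the binding motif of heat shock factors, in RefSeq promoter sequences (build GRCm38.p6, 250 bases before to 50 after the start). Of the 81 genes, 66 had an entry, with 85 promoters in all. A heat shock element of 3 units, GAANNTTCNNGAA or TTCNNGAANNTTC on either strand, was in 6 of the 85 promoters (7.06%), beside 0.603% of all 32851 promoters. These promoters belong to 4 genes: Hspd1, Hspe1, Dnajb6 and Hsph1. The share counts some sites more than once, because Hspd1 and Hspe1 share theirs. The sites of Dnajb6 and Hsph1 each lie in overlapping promoters of the same gene. The following stretches show the element in capitals. Those of Hspe1 (chr1:55088053-55088082, plus strand) and Hspd1 (the same bases on the minus strand) are the 2 readings of the element that the mitochondrial pair shares, and that of Dnajb6, a J-domain gene, is at chr5:29735844-29735873 on the plus strand.
Hspe1: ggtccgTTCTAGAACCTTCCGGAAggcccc
Hspd1: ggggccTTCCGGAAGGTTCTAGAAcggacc
Dnajb6: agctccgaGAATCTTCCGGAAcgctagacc
Dnajb6 had a log2 fold change of -0.23 (adjusted p = 0.699), so the 4 genes with the 3-unit element all had negative values, between -0.41 and -0.23. A 2-unit element, GAANNTTC or TTCNNGAA, which also lies within each 3-unit element, was in 24.7% of the promoters beside 15.1% of all promoters.

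The ER genes gave values of both signs with all 6 libraries, and of 1 sign after the correction for length and GC content. Hspa5, which encodes the ER HSP70 known as BiP, was at 913, 1018 and 830 CPM in controls and at 768, 811 and 758 CPM in exposed ovaries. Hsp90b1, the ER HSP90 known as GRP94, was at 1228, 1416 and 1272 CPM in controls and at 1174, 1181 and 1085 CPM in exposed ovaries. Neither gene overlapped between the groups, and their log2 fold changes were -0.24 (adjusted p = 0.692) and -0.19 (adjusted p = 0.700). Using replicates 1 and 2 neither was called (adjusted p = 0.0864 and 0.341), but both were after the correction for length and GC content, where Hspa5 fell by 0.44 (adjusted p = 0.0348) and Hsp90b1 fell by 0.49 (adjusted p = 0.0264) on the log2 scale. Hspa13, a microsome-associated HSP70, was at 56.1, 67.0 and 92.3 CPM in controls and 93.0, 87.6 and 73.9 CPM in exposed ovaries, so replicate 3 had the opposite order from replicates 1 and 2. Its log2 fold change was 0.24 (adjusted p = 0.714), and with replicates 1 and 2 it rose by 0.57 on the log2 scale (adjusted p = 0.0131). After the correction for length and GC content that value of Hspa13 was 0.04 (adjusted p = 0.789). The J-domain partners of BiP gave mixed values. Dnajb11 was at 136, 143 and 101 CPM in controls and 119, 141 and 96.9 CPM in exposed ovaries (log2 fold change -0.09). Dnajc10, a disulfide reductase, was at 202, 209 and 241 CPM against 226, 217 and 212 CPM (0.0067). Over the 8 ER genes, 5 values were positive and 3 negative (median 0.04), which became 0 positive and 8 negative (median -0.09) after the correction for length and GC content.

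The ER stress element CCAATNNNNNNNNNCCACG, which the ER stress response factors bind, was in 3 of the 85 promoters on either strand (3.53%), beside 0.119% of all promoters. The CCAAT box within it was in 40% of the 85 and in 37.4% of all promoters. The 3 genes with the element are ER chaperone genes, and the element stands in capitals in the stretches of Hspa5 (chr2:34772020-34772049, plus strand), Hsp90b1 (chr10:86705533-86705656, minus strand, with an element at each end, the second in the opposite direction) and Dnajc3 (chr14:118937807-118937866, plus strand), which encodes an ER-resident J-domain protein also known as P58IPK.
Hspa5: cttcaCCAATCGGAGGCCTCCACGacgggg
Hsp90b1: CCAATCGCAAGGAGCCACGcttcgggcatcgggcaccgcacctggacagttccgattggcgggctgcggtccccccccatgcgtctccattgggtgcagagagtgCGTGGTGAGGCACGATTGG
Dnajc3: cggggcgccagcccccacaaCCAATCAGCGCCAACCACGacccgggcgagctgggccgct
Hspa5 and Hsp90b1 had negative values, whereas the sign for Dnajc3 depended on the correction. Dnajc3 was at 103, 104 and 111 CPM in controls and 113, 123 and 98.3 CPM in exposed ovaries, with a log2 fold change of 0.07 (adjusted p = 0.855), or -0.08 after the correction for length and GC content. Among 20 other ER stress genes, 15 had negative values and 5 positive, beside 50.6% negative among all genes. At an unadjusted p below 0.05, 2 were lower and 1 was higher, beside 3.21% and 3% of all genes. The lower genes were the disulfide isomerase Pdia3 (log2 fold change -0.36) and the lectin chaperone Calr (-0.44) and the higher gene was the stress sensor Ern1 (0.48), each with an adjusted p of 0.692. With replicates 1 and 2 alone 8 of the 20 fell and 3 rose, beside 12.9% and 14.2% of all genes. After the correction for length and GC content 5 fell and 1 rose, beside 8.23% and 5.68%. In these 4 libraries Ern1 rose by 0.82 on the log2 scale (adjusted p = 0.00649), and by 0.66 after the correction (adjusted p = 0.0113). Pdia3 and Calr were among those that fell in both fits.

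The CCT chaperonin gave the most uniform family. Its 7 tested genes all had negative log2 fold changes, from -0.32 to -0.20 (median -0.28), and stayed negative under all 5 scalings tried. Cct2 was at 754, 689.9 and 704 CPM in controls and at 577, 608 and 687 CPM in exposed ovaries, Cct4 at 622, 549 and 574 CPM against 431, 443 and 528 CPM, and Cct5 at 762, 717 and 651 CPM against 514, 519.8 and 673 CPM. Exposed 3 was the highest exposed library of all 3 subunits, and only in Cct5 did it pass a control. In the same way, the groups did not overlap for Cct2, Cct3, Cct4 and Tcp1 and overlapped through exposed 3 for Cct5, Cct7 and Cct8. Among all genes, 5.92% had every exposed library below every control library. None passed the adjusted threshold with 6 libraries (adjusted p from 0.692 to 0.699). In replicates 1 and 2, Cct3, Cct4, Cct5, Cct7 and Tcp1 fell by 0.32 to 0.50 on the log2 scale (adjusted p from 0.0109 to 0.0415), and Cct2 (0.0794) and Cct8 (0.0536) did not pass. Of all genes 12.9% fell in that fit. The summed level of the family was 5139, 4808 and 4655 CPM in controls and 3718, 3881 and 4491 CPM in exposed ovaries. Cct6a, the subunit that the symbol rule leaves out because GENCODE M21 does not list it as protein-coding, was at 497, 427 and 519.9 CPM in controls and 402, 398 and 485 CPM in exposed ovaries (log2 fold change -0.17, adjusted p = 0.722). The share of 50-base stretches found in other genes was highest for Tcp1 (10.8%, of which 7.57% with Acat3) and Cct8 (6.1%, with Usp16) and lower for the other CCT subunits.

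**Figure D3:**
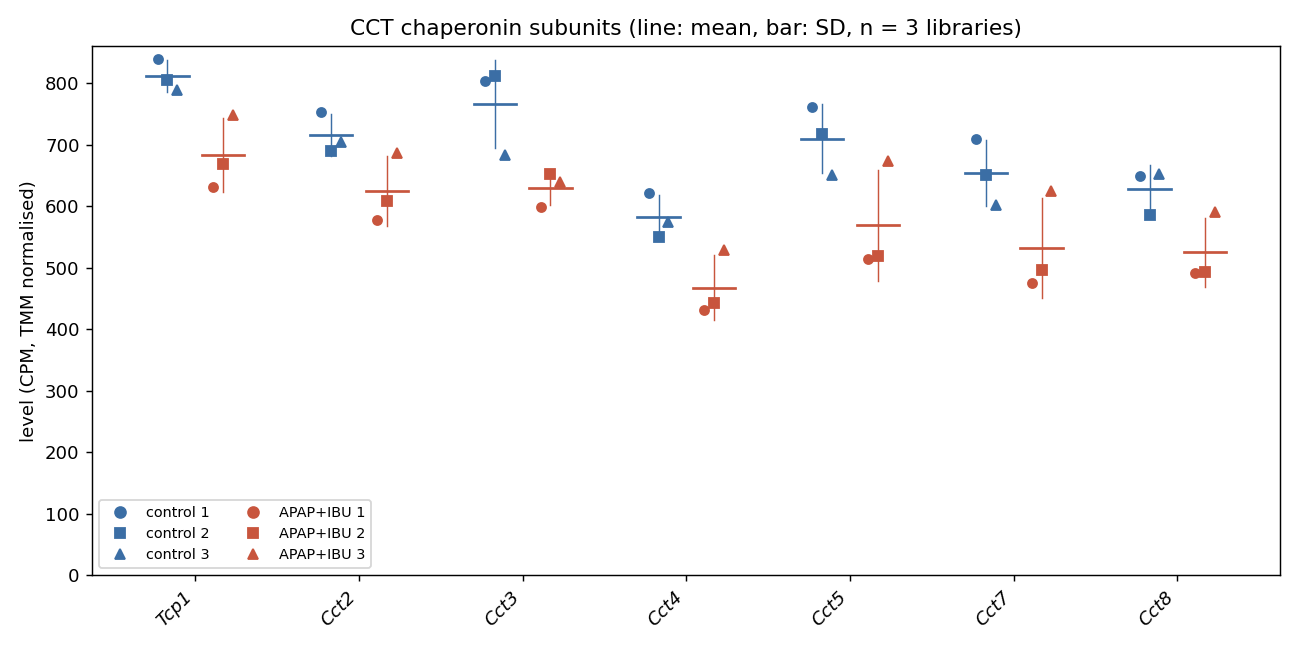
Level of 7 CCT subunit genes in each library (CPM), with controls in blue and exposed ovaries in red; circles, squares and triangles are replicates 1, 2 and 3, lines are means and bars are SD over 3 libraries. In 6 of the 7 genes exposed replicates 1 and 2 lie lowest, and the exposed 3 triangle is the highest exposed point in each gene but Cct3.

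A 2-unit heat shock element lies in the promoters of Cct2 (chr10:117063384-117063443, minus strand) and Cct5 (chr15:31601862-31601891, minus strand), shown in capitals, and in that of Cct8l1, which had too few counts to be tested. Cct2 and Cct5 are printed as the subunits of highest RPKM (262 and 231).
Cct2: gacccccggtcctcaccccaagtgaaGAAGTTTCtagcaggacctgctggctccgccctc
Cct5: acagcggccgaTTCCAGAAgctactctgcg
Among 13 partners of the chaperonin, which include the prefoldin subunits that hand it actin and tubulin, 9 had negative values and 4 positive. The testis gene Pdcl2 had a log2 fold change of -2.74 (adjusted p = 0.326) and Pfdn4 one of -0.26 (adjusted p = 0.692). Using replicates 1 and 2 alone 5 partners fell and 3 rose (Vbp1, Pdcl and Bbs12), beside 12.9% and 14.2% of all genes. After the correction for length and GC content 4 fell and 0 rose, beside 8.23% and 5.68% of all genes. Vbp1 was among those that fell (by 0.54 on the log2 scale, adjusted p = 0.0198).

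The DNAJC family, the most varied in function, had 15 positive and 11 negative log2 fold changes (median 0.01, range -0.42 to 0.67). That balance turned to 10 positive and 16 negative with upper quartile scaling and with the correction for length and GC content. Dnajc9, a histone chaperone that also recruits HSP70, was at 80.8, 75.7 and 70.4 CPM in controls and at 60.1, 57.9 and 66.6 CPM in exposed ovaries, without overlap. Its log2 fold change was -0.30 (SE 0.12, adjusted p = 0.692), and with replicates 1 and 2 it fell by 0.39 on the log2 scale (adjusted p = 0.0233). Dnajc8, a splicing-associated gene, was at 165, 127 and 129 CPM in controls and 119.6, 115 and 128 CPM in exposed ovaries (log2 fold change -0.21, adjusted p = 0.698). The endosomal gene Dnajc13 and the ER gene Dnajc16 were among the genes that rose with replicates 1 and 2, by 0.49 and 0.35 on the log2 scale. After the correction for length and GC content their values there were 0.04 and 0.31 (adjusted p = 0.827 and 0.0827). Dnajc22, with the most positive value of the family (0.67, SE 0.61), was at 0.525, 1.42 and 2.99 CPM in controls and 1.77, 1.88 and 4.27 CPM in exposed ovaries, and was highest in replicate 3 of each group, as the hepatocyte markers were.

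The testis genes gave the largest differences, all at low levels. Dnajc5b, a testis relative of the synaptic vesicle protein encoded by Dnajc5, had 53, 23 and 19 counts in control 1 to 3 and 1, 1 and 0 counts in exposed 1 to 3. Summed over libraries and scaled for depth, its control level was 53.9 times the exposed level, with a 95% counting interval of 14.5 to 452. Its adjusted p was 0.0906 with 6 libraries, a value shared with several spermatid markers and the lowest of all genes tested, and 0.00681 with replicates 1 and 2. DESeq2 called Dnajc5b with 6 libraries (adjusted p = 0.00072). Dnajc5b, Hspb9, Hspa1l and Dnajb8 passed the expression filter only through the controls, where they were higher, so their p-values are not independent of that filter. Where every library had to reach 10 counts they were not tested. The lowest adjusted p of the 74 chaperone genes left was then 0.703 in edgeR.

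Hspb9, a small heat shock protein of sperm cells, had 144, 37 and 25 counts in controls and 10, 3 and 4 in exposed ovaries (log2 fold change -3.81, SE 0.82, adjusted p = 0.227). Hspa1l, the testis HSP70 next to Hspa1a and Hspa1b, had 75, 36 and 32 counts in controls and 5, 14 and 4 in exposed ovaries (log2 fold change -2.82, SE 0.59, adjusted p = 0.211). Dnajb8 had 39, 13 and 36 counts in controls and 10, 7 and 10 in exposed ovaries (log2 fold change -1.85, adjusted p = 0.520). None of the 3 overlapped between the groups, and control 1 was the highest library of each. Without control 1 the log2 fold change of Hspb9 was -2.62, that of Dnajc5b went from -5.53 to -4.91, and without exposed 2 that of Hspa1l was -3.57. In replicates 1 and 2 Hspb9 (adjusted p = 0.0125) and Hspa1l (adjusted p = 0.018) fell and Dnajb8 did not pass (adjusted p = 0.0695). Hspa1l shares 71.4% of its 50-base stretches with the antisense gene Gm10501, whose log2 fold change was 0.12 (adjusted p = 0.887), and Dnajb8 shares 50.8% with the antisense gene 1700031F10Rik. The strand setting of the counting is not given in the sources used here, so reads of these pairs may not be separable.

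The other testis genes changed less or not in the same way. Dnajb3 was at 7.71, 5.06 and 3.48 CPM in controls and 3.88, 2.90 and 3.202 CPM in exposed ovaries (log2 fold change -0.70, adjusted p = 0.692). Cct6b, the testis form of a CCT subunit, was at 1.08, 1.31 and 1.04 CPM in controls and 0.808, 0.961 and 0.338 CPM in exposed ovaries, without overlap (-0.69, adjusted p = 0.692). Dnajb7 had 14, 7 and 15 counts in controls and 8, 4 and 1 in exposed ovaries and was not tested. Dnajb13, a gene of the sperm tail, and Dnajc5g overlapped between the groups (-0.23 and -0.05). Hspa2, the HSP70 of meiotic spermatocytes that is also made elsewhere, was at 26.4, 20.3 and 10.96 CPM in controls and 13.6, 18.01 and 15.2 CPM in exposed ovaries (-0.30, adjusted p = 0.756). Hspa4l, the most abundant testis gene after Hspa2 per length at 5.39 RPKM, was at 48.3, 56.4 and 68.1 CPM in controls and 67.5, 82.5 and 58.6 CPM in exposed ovaries. Its log2 fold change of 0.27 turned to -0.06 after the correction for length and GC content.

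Some of the low testis genes had a profile over the libraries like that of sperm formation markers. A list of 13 spermatid and late spermatocyte markers, among them the protamine gene Prm1, summed to 172.5, 56.9 and 54.8 CPM in control 1 to 3 and to 13.7, 8.82 and 10.8 CPM in exposed 1 to 3. All 13 had a negative log2 fold change (median -4.16), beside 50.6% of all genes, though Spaca1 was flat at -0.0082. After the correction for length and GC content 12 of the 13 were negative. Without it 12 of the 13 were lower at an unadjusted p below 0.05, beside 3.21% of all genes. Control 1 was the highest library in this sum, as it was for Dnajc5b, Hspb9, Hspa1l, Dnajb8 and Dnajb3, whereas control 2 was highest for Cct6b. Dnajb13 was as low in controls, at 0.589 to 1.05 CPM, but overlapped between the groups. Sertoli and Leydig cell markers also had lower levels, with 5 of 5 tested values negative and 3 at an unadjusted p under 0.05. The labels give ovary for every library, and the part of testis RNA in these chaperone values was not tested.

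**Figure D4:**
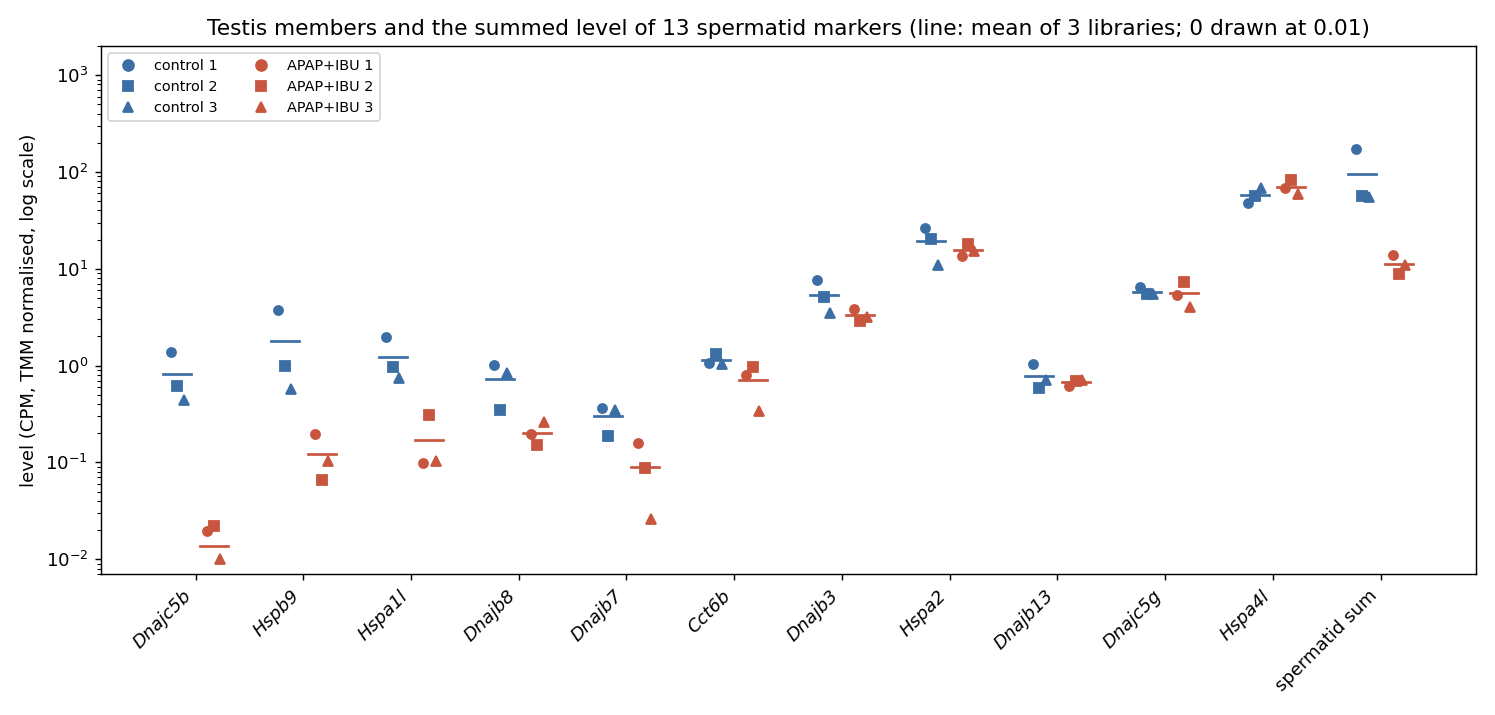
Level of the 11 testis genes and the summed level of 13 spermatid markers in each library (CPM, log scale), with controls in blue and exposed ovaries in red; circles, squares and triangles are replicates 1, 2 and 3, lines are means of 3 libraries, and a level of 0 is drawn at 0.01. Dnajc5b, Hspb9, Hspa1l and the spermatid sum show wide gaps between the groups and Dnajb8, Dnajb7 and Cct6b narrow ones, whereas Dnajb3, Hspa2, Dnajb13, Dnajc5g and Hspa4l overlap.

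Co-chaperones that the symbol rule leaves out also had mostly negative values with 6 libraries. Of 30 genes tested, 23 had negative values (median -0.14), beside 50.6% of all genes (median -0.0047). At an unadjusted p under 0.05, 1 was lower and 0 were higher, beside 3.21% and 3% of all genes. Using replicates 1 and 2 alone 12 of the 30 fell and 0 rose, beside 12.9% and 14.2% of all genes, and after the correction for length and GC content 9 fell and 0 rose, beside 8.23% and 5.68%. Bag1, an exchange factor of HSP70, was at 193, 178 and 133 CPM in controls and at 111, 122 and 130.1 CPM in exposed ovaries, without overlap (log2 fold change -0.47, adjusted p = 0.692). Nudc, an HSP90 co-chaperone, was at 254, 173 and 106 CPM in controls and 93.3, 103 and 143 CPM in exposed ovaries, with overlap in replicate 3 (-0.65, adjusted p = 0.692).

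**Figure D5:**
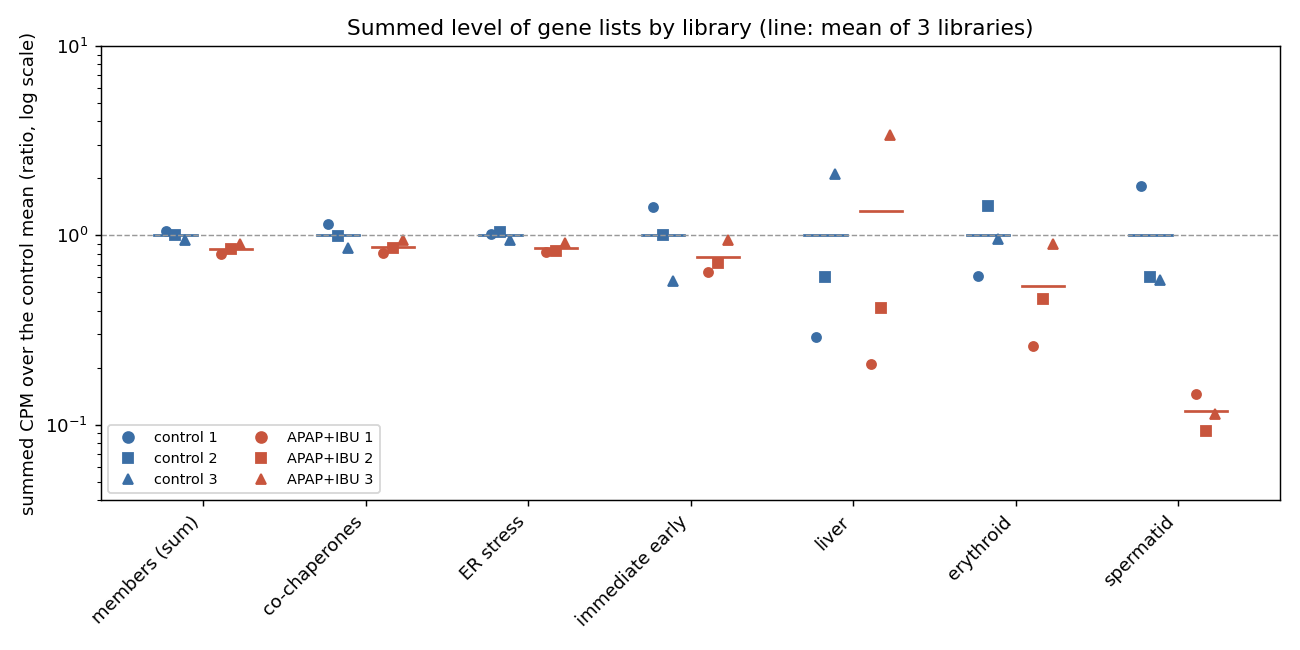
Summed level of 7 gene groups in each library, divided by the mean of the 3 controls (log scale), with controls in blue and exposed ovaries in red; circles, squares and triangles are replicates 1, 2 and 3 and lines are means of 3 libraries. The chaperones without the testis genes (members) stay close to 1, immediate early genes spread more, and hepatocyte markers separate replicate 3 of each group from the rest.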

How the data were processed

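RNA from pooled ovaries of 3 control and 3 APAP + IBU groups had been made into stranded mRNA libraries and sequenced as paired reads. The authors deposited whole-number counts per Ensembl gene; per the submitters' processing notes these came from bcl2fastq 2.17.1.14, TopHat2 2.0.14, Bowtie2 2.1.0 and HTSeq 0.6.1 with the mm10 genome. The strand setting of the counting is not given in the sources used here. Symbols, gene types and exon lengths were taken from GENCODE M21.

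Counts were tested with edgeR 4.0.16 (R 4.3.3; filterByExpr, TMM, quasi-likelihood F test, Benjamini-Hochberg adjustment over all genes tested), exposed against control, with 6 libraries and with the 4 libraries of replicates 1 and 2. The 6-library edgeR fit was also run on simulated counts, drawn with less spread than was estimated here. That check therefore does not give the power or error of the fit in these data. Standard errors were derived from the fold change and the F statistic. Log2 CPM used a prior count of 1, and length and GC corrections used a loess of span 0.3. With 3 against 3 libraries an exact permutation test cannot go below p = 0.1 and was not used. Alternatives were DESeq2 1.42.0, other scalings and filters, a replicate block and leaving out each library.

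The genes and all lists were chosen with earlier results of these data known. Genes named one by one were the 2 with the highest RPKM of each family, the 10 with the smallest p, the testis and stress-inducible genes, the ER and mitochondrial HSP70 and HSP90 genes and, of each list of other factors, the 2 with the smallest p; Hspa14, Hspa12a, Hspa12b, Hspb11, Dnajb6, Dnajc3, Dnajc13, Dnajc16, Dnajc22, Cct3, Cct6a, Cct7, Cct8, Tcp1, Hsf1, Hsf2, Ern1, genes that share sequence with a chaperone gene and genes listed to explain a count were added after their values were seen. Replicate numbers come from the titles, same-numbered pools hold different embryos, and they did not pair the samples. Shared 50-base stretches were counted among GENCODE M21 transcripts on either strand. Counting intervals cover counting error only.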

Additional observations from a re-analysis of the deposited data

How the results depend on the processing

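The count of genes called depended on the libraries and the tool. Over all genes, 0 were called with 6 libraries, 192 by DESeq2, 120 when every gene with at least 1 count was tested, and 0 to 1064 when 1 library was left out (1064 without control 3), beside 5607 with replicates 1 and 2. Of the chaperone genes 0 were called, 3 by DESeq2 (Dnajc5b, Hspa1l and Hspb9), 2 when every gene with at least 1 count was tested (Dnajc5b and Hspb9), 0 to 4 when 1 library was left out (4 without control 3: these 3 and Hspb1) and 25 with replicates 1 and 2. The count at an unadjusted p under 0.05 was 8, and became 5 with total counts, 4 where each library had to reach 10 counts, 14 after the length and GC correction, 4 to 33 when 1 library was left out (33 without control 3, 16 without exposed 3) and 40 with replicates 1 and 2. Over all genes that count moved as well. It was 1254 of 20167, then 1255 with total counts, 970 of 17943 with the 10-count filter and 1892 after the length and GC correction. Without control 3 it was 6294 of 20634, without exposed 3 it was 2386 of 20973, and with replicates 1 and 2 it was 8451 of 20633.

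A replicate block called 2 of all genes (34 with the length and GC correction), 0 chaperone genes (2 with that correction, Dnajc5b and Hspb9), 4 at an unadjusted p under 0.05, and 15 in place of 25 with replicates 1 and 2. Over all genes, 681 of 20167 had an unadjusted p under 0.05 with the block, and 3817 of 20633 were called with replicates 1 and 2. Deviations of same-numbered libraries correlated at -0.07, -0.02 and -0.04, and the pairing is not used. The methods describe independent experiments that each held both conditions, and whether a number marks such an experiment is not stated. With 3 libraries per group these correlations cannot exclude it. Upper quartile scaling moved the split of all genes at an unadjusted p under 0.05 from 606 higher and 648 lower to 414 and 821.

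The median of the chaperone genes was negative in every alternative but moved from -0.20 to -0.08 without control 1 (from -0.17 to -0.08 outside the testis list), and to -0.27 without exposed 3. Of 35 named genes with a fit, 29 kept their sign in every alternative and 6 did not. Leaving out 1 library gave -0.243 to 0.01146 for Dnajb11, -0.3916 to 0.03735 for Dnajb13, -0.04426 to 0.08772 for Dnajc10 and -0.3137 to 0.1091 for Dnajc5g. Dnajc10 was -0.02135 with upper quartile scaling and -0.005034 with at least 10 counts everywhere. With the length and GC correction Dnajc10 was -0.08757, Dnajc5g 0.02559, Hspa13 -0.01348 and Hspa4l -0.06252. With the block added, Dnajc10 was -0.0874, Hspa13 -0.01254 and Hspa4l -0.06948. Dnajc5g was 0.1113 with replicates 1 and 2. The cause of these changes was not tested. Depth limits Dnajb7, Cct8l1 and Hspb3, and the testis genes rest on few counts.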
